A study of Mus musculus with 16 samples.

Results

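Heat-shock and chaperone genes, the machinery that folds, refolds and clears proteins, were examined in cultured mouse cortical neurons given etoposide or NMDA. The 34 members were taken by gene symbol from a list, and all 34 were found among the 22440 genes of the deposited tables. The series holds 16 samples. Of these, 4 are RNA-seq libraries and are used here, and the 12 chromatin samples were not analysed here. The libraries came from primary neurons of Swiss-Webster embryos at embryonic day 16, kept in serum-free neuronal medium with B27 supplement. The NMDA library came from cells given NMDA, which opens a kind of glutamate receptor. The labels give 50 µM NMDA for 10 min, then 10 min without it, as the usual but not the sole protocol. Its own control is a numbered control culture, called the NMDA control here. The etoposide library came from cells given 5 µM etoposide, which traps type II topoisomerases on broken DNA, for a time that the labels do not state. The plain control culture is called the etoposide control. The titles of both controls name no treatment. Each group is 1 library, so no difference has a replicate check, no test was run, and intervals cover counting error only.

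Chaperones work as relays. HSP40 proteins (gene names in Dnaj) hand unfolded clients to HSP70 proteins and start their ATP cycle, HSP110 proteins and BAG proteins release the nucleotide, and the adaptor Stip1 passes clients on to HSP90. Small heat-shock proteins hold unfolded proteins without ATP. When unfolded proteins build up, the transcription factor Hsf1 binds heat-shock elements, inverted repeats of the letters GAA, and switches on inducible members such as Hspa1a and Hspa1b, while Hspa8 and Hsp90ab1 are made at all times. In neurons the same machinery also serves synapses, where Hspa8 works with Dnajc6 (auxilin) to strip clathrin from vesicles and with Dnajc5 (cysteine string protein) on synaptic vesicles. The list reaches beyond the cytosol, since Hspa9, Hspd1 and Hspe1 act in mitochondria and Hspa13 in microsomes, and it includes the factors Hsf1 and Hsf2.

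Promoter sequences of RefSeq genes (build GRCm38.p6) were available for 26 of the 34 members and were searched for heat-shock elements in 300 bases around each gene start, 250 before and 50 after. The 8 without a sequence, Hspa8, Hspa9, Hspa13, Hsp90aa1, Hsp90ab1, Cryab, Dnajc5 and Hsf1, were not searched, so whether they carry the element is not known here. The full element was spelled GAANNTTCNNGAA or TTCNNGAANNTTC, which are each other's reverse complement, so that both strands were read and overlapping matches were counted. It was found for 5 members, Hsph1, Hspd1, Hspe1, Dnajb6 and Chordc1 (19.2% of the 26, against 0.662% of 27025 genes with a promoter window). The shorter form, GAANNTTC or TTCNNGAA, which every full element contains, was found for 13 members (50.0%, against 17.0% of all genes). A match of letters is a description and does not show that a factor binds. The sequences below are shown because these genes come back in the results. Each gives the 250 bases before the gene start on the gene's own strand, 5′ to 3′, with matches in capitals: the full element in the Hspe1 and Dnajb6 windows, and the shorter form in the nearly identical windows of the inducible copies Hspa1a and Hspa1b.
Hspe1 (chr1:55087898-55088147, plus strand): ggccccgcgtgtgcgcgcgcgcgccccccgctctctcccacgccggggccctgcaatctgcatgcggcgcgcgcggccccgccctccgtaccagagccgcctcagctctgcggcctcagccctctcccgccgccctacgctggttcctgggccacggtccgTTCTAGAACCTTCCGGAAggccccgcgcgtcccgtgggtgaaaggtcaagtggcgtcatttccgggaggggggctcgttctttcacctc
Dnajb6 (chr5:29735729-29735978, plus strand): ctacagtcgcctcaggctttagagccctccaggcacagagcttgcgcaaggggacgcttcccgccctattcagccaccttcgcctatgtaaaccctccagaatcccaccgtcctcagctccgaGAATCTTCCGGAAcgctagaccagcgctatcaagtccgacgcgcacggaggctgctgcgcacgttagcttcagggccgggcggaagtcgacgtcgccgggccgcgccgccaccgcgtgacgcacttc
Hspa1a (chr17:34972157-34972406, minus strand): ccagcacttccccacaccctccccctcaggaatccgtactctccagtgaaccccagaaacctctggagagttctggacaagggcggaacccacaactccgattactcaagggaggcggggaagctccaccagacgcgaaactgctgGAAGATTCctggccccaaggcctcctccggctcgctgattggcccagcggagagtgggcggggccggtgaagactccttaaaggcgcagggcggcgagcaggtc
Hspa1b (chr17:34959239-34959488, minus strand): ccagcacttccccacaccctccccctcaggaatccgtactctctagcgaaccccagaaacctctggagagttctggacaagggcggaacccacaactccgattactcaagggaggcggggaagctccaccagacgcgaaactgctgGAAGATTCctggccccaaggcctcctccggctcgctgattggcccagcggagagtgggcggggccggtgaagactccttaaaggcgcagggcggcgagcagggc

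The Hspe1 window overlaps that of Hspd1, which is read from the other strand, and the capitals hold 2 overlapping full elements. The matches of Hspd1 are this same stretch read from its own strand. In Hsph1 the element TTCTGGAAAGTTC and in Chordc1 the elements GAACGTTCGGGAA, TTCGGGAAAATTC and GAAAATTCCTGAA lie at or just after the gene start. The Hspa1a and Hspa1b windows share 247 of 250 bases, and their coding sequences share 1918 of 1926 aligned bases (99.6%), so reads of these genes cannot be told apart reliably and their levels are uncertain.

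The tables give FPKM, a fragment count set relative to transcript length and library size. Low values put the fragment totals near 17.9 M with NMDA, 20.1 M in its control, 13.9 M with etoposide and 15.2 M in its control. The microRNA locus Mir5109 took 51.9% to 76.5% of the FPKM sum and the pairs lie on different scales, the NMDA control having a median 3.05 times that of the etoposide control over 9533 genes at FPKM of at least 1 in all 4 libraries. Levels set across pairs are therefore given after median scaling, in which each library is divided by that median and all are multiplied by a common factor, the geometric mean of the medians. Folds are log2((first + 1)/(second + 1)) of FPKM, for genes reaching 1 FPKM in at least 1 library of the pair, and a call means at least 2-fold. The pseudocount of 1 understates the change of low genes.

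Chaperone transcripts were abundant. The members' median level was 31.5 FPKM with NMDA and 31.8 FPKM in its control, and 7.92 FPKM with etoposide and 9.61 FPKM in its control, against medians of all genes of 2.55, 2.65, 0.550 and 0.689 FPKM in the same libraries. Per length, Hspa8, Hsp90ab1 and Hsp90aa1 led in every library and made up 62.4% of the summed FPKM of the members with NMDA, 63.8% in the NMDA control, 54.1% with etoposide and 55.7% in the etoposide control. Hspa8 stood at 994 and 1041 FPKM in the NMDA library and its control and at 141 and 182 FPKM in the etoposide library and its control. Hspa8 shares its listed locus with LOC624853. At the other end lay some of the stress-inducible genes, though not Hsp90aa1 or Dnajb1. Hspa1a was at 0.494 FPKM with NMDA, 0.746 in the NMDA control, 1.08 with etoposide and 0.890 in the etoposide control, about 26 to 44 fragments a library. Hspb1, a small heat-shock protein, was between 0.157 and 0.466 FPKM, on 2 to 8 fragments, and Bag3, an exchange factor that steers clients to autophagy, between 0.160 and 0.988 FPKM. Hspb1 and Bag3 stayed under 1 FPKM in all 4 libraries and entered no comparison.

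**Figure D1:**
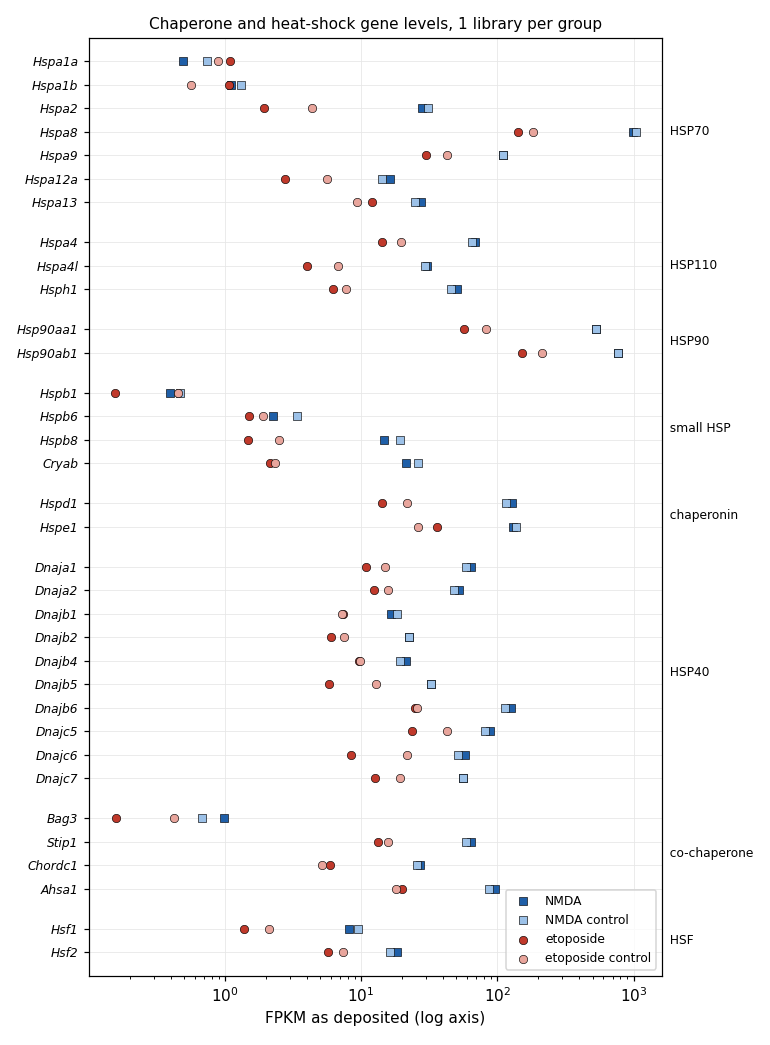
FPKM as deposited of the 34 genes on a log axis, grouped by role, with 1 point per library for NMDA, its control, etoposide and its control. Hspa8, Hsp90ab1 and Hsp90aa1 lie highest in every library, and Hspb1 and Bag3 stay under 1 FPKM.

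In cells given etoposide, where the question is how transcripts respond to trapped topoisomerase, the chaperone genes as a group kept close to all genes and no member was at least 2-fold higher than in the etoposide control. Dnajc6 and Dnajb5, members of the HSP40 family, were at least 2-fold lower. These were 2 of 32 members compared, against a background of 7.36% of 10681 genes at least 2-fold lower and 0.477% at least 2-fold higher, so the share lay near the background. The members' median log2 fold was -0.35 and that of all genes -0.32, and 15 members lay above the median of all genes and 17 below. After median scaling 0 of 32 members passed 2-fold in either direction, against 2.43% of 11959 genes lower and 2.56% higher, and the members' folds ran from -0.90 to 0.88.

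The genes called lower on the deposited scale, Dnajc6 and Dnajb5, were not called after median scaling. Dnajc6 (chr4:101169253-101315404, mm9), the auxilin of clathrin uncoating, was at 8.46 FPKM with etoposide and 21.8 FPKM in its control. Its ratio was 0.388 (95% interval 0.353 to 0.426, about 601 and 1701 fragments), and its median-scaled log2 fold was -0.90, the lowest of the members. Dnajb5 (chr4:42965966-42971604), an HSP40 protein, was at 5.80 FPKM with etoposide and 13.0 FPKM in its control, a ratio of 0.448 (0.375 to 0.532) and a median-scaled log2 fold of -0.68. Both are in the authors' deposited table as lower, which lists 680 genes in that direction (3.03% of 22440) and 12 as higher (0.0535%). Against the other control after median scaling the log2 folds were smaller, -0.53 for Dnajc6 and -0.42 for Dnajb5.

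Among the other HSP40 genes the levels spread widely. Dnajc5, the vesicle chaperone, was at 23.7 FPKM with etoposide and 42.5 FPKM in its control, a ratio of 0.558 (0.520 to 0.598). Against the other control its median-scaled log2 fold took the opposite sign, at 0.26, compared with -0.40 against its own. Dnajb1, the heat-inducible partner of HSP70, was at 7.39 FPKM with etoposide and 7.26 FPKM in its control. Its ratio of 1.02 (0.849 to 1.22) gave a median-scaled log2 fold of 0.43. Dnajb4 at 9.64 and 9.88 FPKM and Dnajb6, which keeps aggregation-prone proteins soluble, at 25.0 and 25.8 FPKM with etoposide and in its control were also close to level as deposited. Dnaja1, Dnaja2, Dnajb2 and Dnajc7 had ratios between 0.661 and 0.803. Dnajc7 overlaps exons of Cnp and Nkiras2, Dnajb6 those of Gm5129 and Dnaja1 those of Smu1 on the opposite strand, and the sources used here do not say whether strands were told apart. Dnaja1 also overlaps Mir207 on the same strand. It shares its listed locus with Mir207 and Smu1, and Dnajb6 shares its own with Gm5129.

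Among HSP70, HSP110 and HSP90 genes, the most abundant lay near the library scale and the others spread to both sides of it. Hspa8 had a ratio of 0.774 (0.743 to 0.806), Hsp90aa1 0.688 (0.652 to 0.725) and Hsp90ab1 0.717 (0.692 to 0.742), beside a ratio of 0.740 between the library medians. Their median-scaled log2 folds were 0.06, -0.11 and -0.05 against their own control, and -0.84, -1.17 and -0.30 against the other control. Hspa4 and Hsph1, which exchange the nucleotide of HSP70, were at -0.03 and 0.10 on that scale, Hspa4l at -0.29, and the mitochondrial Hspa9 at -0.06. With the other control as denominator, Hspa4 was at -0.15, Hsph1 at -0.79, Hspa4l at -0.78 and Hspa9 at 0.16. Hspa13, a microsomal HSP70, stood apart at 11.96 FPKM with etoposide and 9.35 FPKM in its control, a median-scaled log2 fold of 0.75 against its own control and 0.93 against the other. Hspa12a, a distant HSP70 relative, was at 2.75 FPKM with etoposide and 5.59 FPKM in its control (-0.52 scaled), and Hspa2 at 1.94 and 4.39 FPKM (-0.63 scaled). Set against the other control, these were -0.29 for Hspa12a and -1.74 for Hspa2.

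The inducible HSP70 copies were low in every library, and Hspa1a overlaps exons of Gm20481 on the opposite strand. Hspa1b was at 1.08 FPKM with etoposide and 0.566 FPKM in its control, a ratio of 1.91 (1.14 to 3.32) on about 42 and 24 fragments, and Hspa1a had a ratio of 1.22 (0.770 to 1.90). The median-scaled log2 folds of Hspa1b and Hspa1a were 0.82 and 0.47 against their own control. Against the other control they were 0.99 and 1.28, so Hspa1a passed 2-fold higher there. In the NMDA control Hspa1b and Hspa1a were at 0.707 and 0.399 scaled FPKM. Both thus met the level filter of that comparison only through the etoposide library, as did Hspa1b against its own control (0.923 scaled FPKM). The co-chaperones Ahsa1, which stimulates the HSP90 ATPase, and Chordc1, which binds HSP90, were at 19.9 and 18.0 FPKM and at 5.91 and 5.13 FPKM with etoposide and in its control. Their median-scaled log2 folds were 0.57 and 0.58 against the own control and -0.07 for each against the other control. Stip1 was at 0.19 on the same scale. Neither heat-shock factor passed 2-fold: Hsf1 was at 1.38 and 2.10 FPKM and Hsf2 at 5.75 and 7.32 FPKM with etoposide and in its control. Among small heat-shock proteins, Hspb6 had a ratio of 0.790, Hspb8 0.588 and Cryab 0.922, each on 29 to 70 fragments a library.

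**Figure D2:**
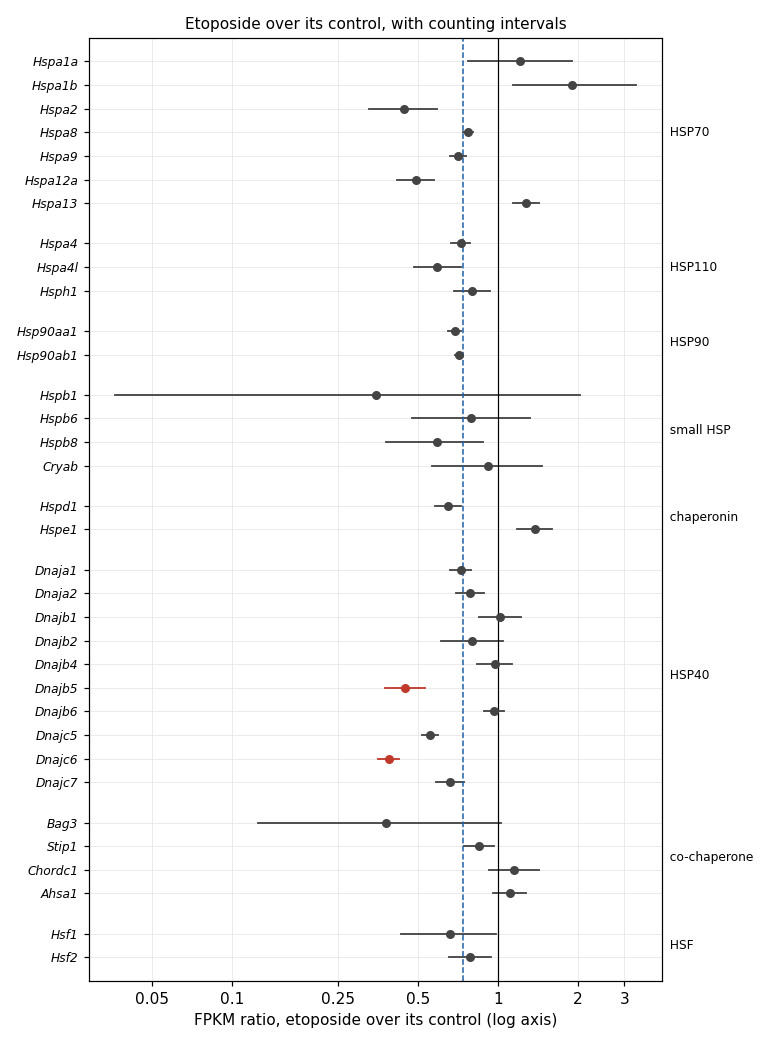
FPKM ratio of etoposide over its control for each gene on a log axis, with 95% counting intervals from approximate fragment numbers. The solid line marks 1, the dashed line the ratio of 0.740 between the library medians, and red the genes in the authors' deposited table, Dnajb5 and Dnajc6.

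The mitochondrial chaperonin genes parted with etoposide and are read in opposite directions from neighbouring starts. Hspd1 (chr1:55134678-55144776, mm9, minus strand) encodes the barrel HSP60 and Hspe1 (chr1:55144992-55148161, plus strand) its lid HSP10. Hspe1 was at 35.9 FPKM with etoposide and 26.1 FPKM in its control, a ratio of 1.38 (1.18 to 1.61), while Hspd1 was at 14.2 and 21.9 FPKM, a ratio of 0.651 (0.579 to 0.729). Within a library, the level of Hspd1 over that of Hspe1, which needs no scaling, was 0.397 (0.346 to 0.455) with etoposide and 0.840 (0.736 to 0.962) in its control. It was 0.972 (0.922 to 1.03) with NMDA and 0.846 (0.805 to 0.889) in the NMDA control, so the etoposide library lay below the other 3. The median-scaled log2 fold of Hspe1 was 0.88 against its own control but 0.11 against the other, and that of Hspd1 -0.18 and -0.96, so the signs were opposite against either control while the size of each fold depended on it. The annotated transcripts differ in length, 774 bases for Hspe1 and 2423 for Hspd1, and these transcripts do not overlap each other. The Hspe1 transcript overlaps other exons annotated to Hspd1 on the opposite strand, while the Hspd1 transcript used here overlaps no exon of another gene. Genes are not independent replicates. Over 9688 genes with a locus of their own, the median-scaled etoposide fold had a Spearman's rho of -0.44 with transcript length, and over 29 members of -0.31. With the span of the locus it was -0.46 over 9925 genes and -0.39 over 29 members, whose longest is Dnajc6 at 146.2 kb. All points share the same pair of libraries, and the part of length in the Hspd1 and Hspe1 values was not tested.

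**Figure D3:**
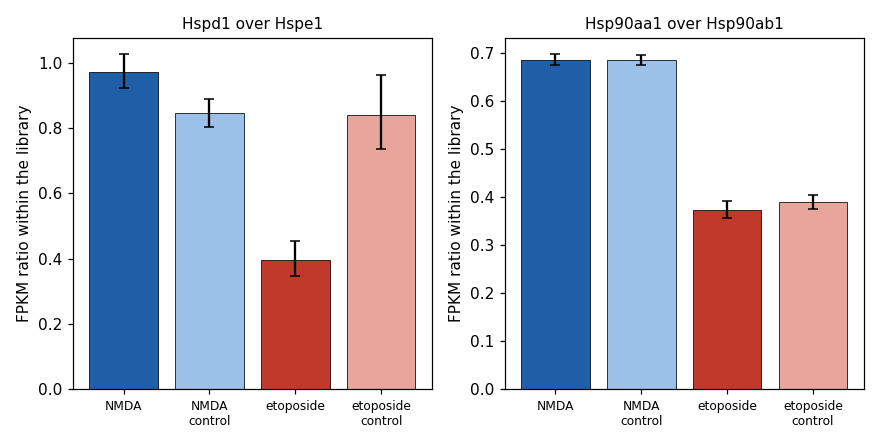
Level of Hspd1 over Hspe1 (left) and of Hsp90aa1 over Hsp90ab1 (right) within each library, as FPKM ratios. Bars are single libraries and whiskers 95% counting intervals, with the etoposide bar lowest on the left at 0.397 and the NMDA pair at 0.685 and 0.684 on the right.

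NMDA treatment, which addresses the response to receptor activation, left the chaperone genes nearly level. Of 31 members compared, 0 were at least 2-fold higher or lower, against a background of 0.438% of 13028 genes higher and 0.729% lower, and 0 of the 34 are in the authors' deposited table, which lists 25 genes as higher (0.111% of 22440) and 38 as lower (0.169%). The members' median log2 fold was 0.03 and that of all genes 0.02. After median scaling 0 of 30 members passed 2-fold, against 0.406% of 12078 genes higher and 0.753% lower. Their folds ran from -0.37 to 0.13, and 27 of them lay within 0.25 of 0, as did 92.0% of all genes.

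The most abundant genes, Hsp90aa1, Hsp90ab1 and Hspa8, differed by a few percent at most, and some others by more. Hsp90aa1 was at 528 FPKM both with NMDA and in its control, a ratio of 1.00 (0.983 to 1.02), and Hsp90ab1 at 770 and 772 FPKM, a ratio of 0.998 (0.984 to 1.01). Hspa8 had a ratio of 0.954 (0.941 to 0.968). Hsph1, at 50.8 FPKM with NMDA and 45.5 FPKM in its control, had a ratio of 1.12 (1.06 to 1.18), and Hspd1, Dnaja1, Dnajb6, Stip1 and Ahsa1 had ratios between 1.09 and 1.11. Dnajc6 was at 57.6 and 51.3 FPKM with NMDA and in its control, a ratio of 1.12 (1.08 to 1.17), and Dnajb5 at 32.7 and 32.6 FPKM. The factors Hsf1 and Hsf2 had ratios of 0.859 (0.738 to 0.999) and 1.13 (1.02 to 1.24).

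Among the members compared, the lowest folds with NMDA belonged to small heat-shock proteins. Hspa1a, under 1 FPKM in both libraries and so not compared, had a ratio of 0.662 (0.392 to 1.10) on about 26 and 44 fragments. Hspb6 was at 2.24 FPKM with NMDA and 3.38 FPKM in its control, a ratio of 0.662 (0.467 to 0.936). Hspb8, which works with Bag3, was at 14.8 and 19.2 FPKM, a ratio of 0.773 (0.687 to 0.869), and Cryab (alpha B-crystallin) at 21.5 and 26.2 FPKM, a ratio of 0.820 (0.725 to 0.927). All 3 lay below the median of all genes, and Hspb6 overlaps exons of Lin37 on the opposite strand. The astrocyte marker sum was also lower, by a smaller share than these genes. The summed median-scaled level of the 9 astrocyte markers was 482 with NMDA and 512 in its control, with 8 of 9 below the median fold of all genes, and that of the 12 oligodendrocyte lineage markers was 111 and 118, with 10 of 10 compared below it. Sums were also lower with NMDA than in its control for markers of dividing progenitors (186 and 220), smooth muscle and vessels (29.3 and 36.1, with Cldn5 and Cdh5 listed at 0 with NMDA) and microglia (1.93 and 2.45), and higher for pan-neuronal markers (786 and 757). The annotated transcripts of Hspb6, Hspb8 and Cryab are 1363, 1816 and 1185 bases long. Over 27 members the median-scaled NMDA fold had a Spearman's rho of 0.62 with locus span and 0.555 with transcript length. Over all genes with a locus of their own these were 0.19 and 0.18. The parts of cell makeup and of length in the small heat-shock values were not tested. In such bulk samples, fewer cells of a type and less RNA per cell cannot be told apart.

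The cultures named as controls differed from each other more than NMDA differed from its control. As deposited, 27 of 31 members were at least 2-fold higher in the NMDA control than in the etoposide control, as were 75.1% of 12987 genes, and 0 were lower (background 0.708%). After median scaling 4 of 31 were at least 2-fold higher, Cryab, Hspb8, Hspa2 and Hsp90aa1, and 0 were lower, against 8.58% and 2.72% of 12354 genes. The members' scaled folds ran from -0.81, for Hspa1a at 0.399 scaled FPKM in the NMDA control, to 1.65. Their median size without sign was 0.49, against 0.35 for all genes, 0.10 for the members with NMDA and 0.26 with etoposide. The comparison of the controls uses the same control libraries as the treated comparisons and is not independent of them.

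Relative to the library medians, the HSP90 genes differed unequally between the controls. Hsp90aa1, the inducible HSP90, was at 528 FPKM in the NMDA control and 82.5 FPKM in the etoposide control, a median-scaled log2 fold of 1.06, while the constitutive Hsp90ab1 was at 772 and 212 FPKM, a fold of 0.25 on the same scale. The level of Hsp90aa1 over Hsp90ab1 within a library was 0.685 with NMDA (0.674 to 0.696) and 0.684 in its control (0.674 to 0.695), and 0.373 with etoposide (0.355 to 0.392) and 0.389 in its control (0.374 to 0.405). The ratio differed between the culture pairs, while within each pair the intervals overlapped. Hspa8 had a median-scaled log2 fold of 0.90 between the controls, Hspa4l 0.49, Stip1 0.28, Ahsa1 0.64 and Dnaja1 0.36. Others of the HSP70, HSP110 and HSP40 families went both ways, with Hspa2 at 1.11, Hsph1 at 0.89 and Dnajb6 at 0.53. Among those near or below 0 were Hspa4 at 0.12, Dnajc7 at -0.08, Hspa9 at -0.23 and Dnajb1 at -0.25.

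Among the 26 members searched, all 5 with a full heat-shock element in the promoter window lay on the higher side, of which Hspd1 and Hspe1 share 1 stretch. Above the median of all genes lay 17 of all 31 members compared, 2 of 5 with the shorter form alone and 5 of 13 with neither. Folds of the other genes that carry the element are not given. The 8 members not searched ran from -0.66 for Dnajc5 to 1.65 for Cryab, with Hsp90aa1 at 1.06 and Hspa8 at 0.90. The median-scaled log2 folds of the full-element genes, NMDA control over etoposide control, were 0.89 for Hsph1, 0.78 for Hspd1, 0.77 for Hspe1, 0.65 for Chordc1 and 0.53 for Dnajb6. The 13 members with neither form of the element had a median of -0.01, with a range of -0.41 to 1.11. The 5 compared members that carry the shorter form alone went both ways. They were Hspb8 at 1.14, Dnaja1 at 0.36, Hspb6 at -0.56, Dnajb4 at -0.60 and Hspa1a at -0.81. Hspa1a, at 0.399 scaled FPKM in the NMDA control and 1.45 in the etoposide control, met the level filter only through the latter. Its near-identical copy Hspa1b, at 0.707 and 0.923, was not compared. Their deposited FPKM ratios between these controls were 0.839 for Hspa1a and 2.34 for Hspa1b. With NMDA the medians of the full, shorter and no-element genes were 0.10, -0.14 and 0.02, and with etoposide 0.38, 0.23 and -0.03. The shorter-form median with etoposide includes Hspa1b at 0.82, which met the level filter only through the etoposide library. The other shorter-form genes were Hspa1a at 0.47, Dnajb4 at 0.38, Hspb6 at 0.07, Dnaja1 at -0.03 and Hspb8 at -0.26. Against the other control the etoposide folds of the full-element genes were mostly below 0, at -0.96 for Hspd1, -0.79 for Hsph1, -0.15 for Dnajb6, -0.07 for Chordc1 and 0.11 for Hspe1. The etoposide comparison and that of the controls both have the etoposide control as denominator. These are descriptions of 5, 4 and 13 genes with NMDA and 5, 6 and 13 genes with etoposide.

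The HSP40 members were split between the controls. After median scaling 8 of 10 HSP40 members lay below the median of all genes, against 5 of 10 on the deposited scale. Of these, Dnaja2, Dnajb2 and Dnajc7 were close to 0 at -0.00071, -0.014 and -0.079, while Dnajb6 at 0.53 and Dnaja1 at 0.36 lay above. Of 31 other HSP40 genes compared, 19 lay above the median of all genes. Dnajc5 was at 81.3 FPKM in the NMDA control and 42.5 FPKM in the etoposide control, a scaled log2 fold of -0.66, Dnajb4 at 19.3 and 9.88 FPKM, a fold of -0.60, and Dnajc6 at 51.3 and 21.8 FPKM, a fold of -0.36. Hsf2 was at -0.41 and Hsf1 at 0.47 on this scale.

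**Figure D4:**
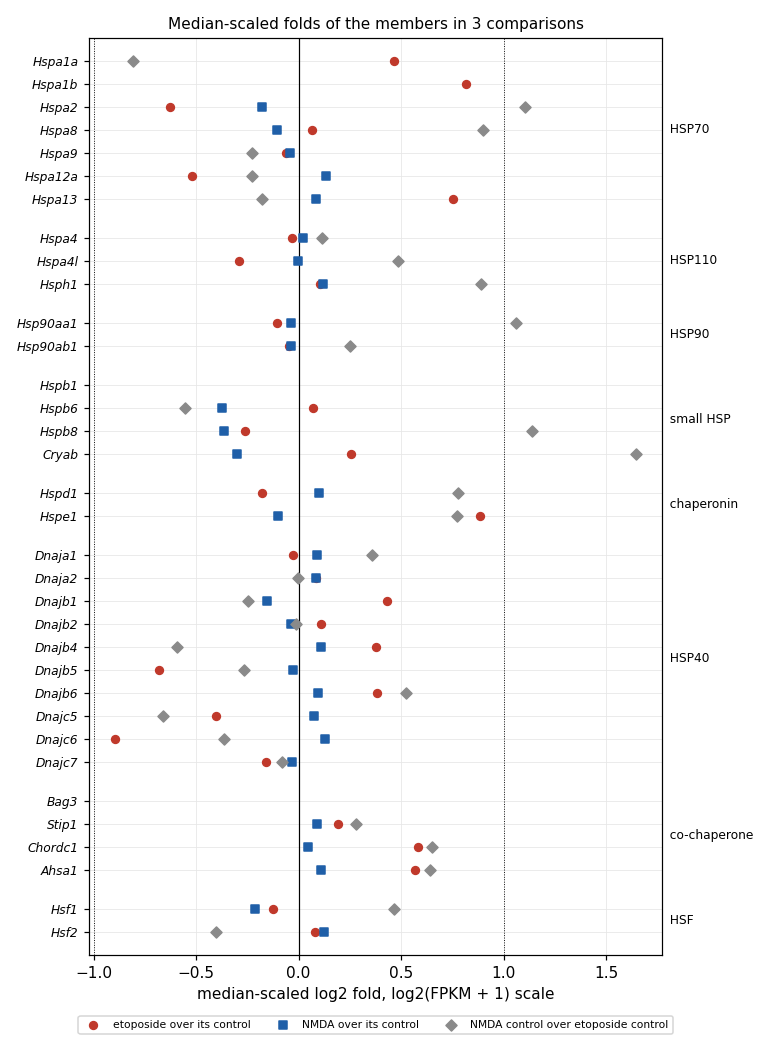
Median-scaled log2 fold, on the log2(FPKM + 1) scale, of each gene in the 3 comparisons, with dotted lines at 2-fold. The NMDA squares stay between -0.37 and 0.13, while the control diamonds reach 1.65 for Cryab.

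Cryab, Hspb8 and Hspa2, picked as the members with the highest scaled folds between the controls, are set beside the marker sums here. Hsp90aa1, also called, was at 1.06. The sums of glial, dividing progenitor, smooth muscle and vessel, and microglial markers were all higher in the NMDA control. Since the genes were picked by this same difference, the shared direction is a description only. Cryab, made in lens, muscle and glia, was at 26.2 FPKM in the NMDA control and 2.32 FPKM in the etoposide control (scaled log2 fold 1.65), Hspb8 at 19.2 and 2.51 FPKM (1.14) and Hspa2, an HSP70 best known from male germ cells, at 31.0 and 4.39 FPKM (1.11). The summed scaled level of the 9 astrocyte markers was 512 in the NMDA control and 172 in the etoposide control, with Aldoc at 161 and 35.5 and Slc1a3 at 139 and 62.8 scaled FPKM. For the 12 oligodendrocyte lineage markers the sums were 118 and 36.8, with Olig1 at 41.8 and 27.1 and Pdgfra at 22.8 and 0.167 scaled FPKM, and Mag was listed at 0 in the etoposide control. Pan-neuronal markers summed to 757 and 890, with Tubb3 at 324 and 341 and Stmn2 at 188 and 181 scaled FPKM. Markers of dividing progenitors summed to 220 and 145, with Vim at 167 and 118 and Sox2 at 25.1 and 8.61. Smooth muscle and vessel markers summed to 36.1 and 22.4, with Cldn5 and Cdh5 listed at 0 in the etoposide control and Acta2 at 13.5 and 7.52, and microglial markers to 2.45 and 0.630, with C1qa and C1qb listed at 0 in the etoposide control. With etoposide against its control, the astrocyte sum was 122 and 172, the oligodendrocyte sum 14.3 and 36.8 with Sox10 listed at 0 in the etoposide library, the dividing progenitor sum 68.2 and 145, the pan-neuronal sum 728 and 890, the microglial sum 0.771 and 0.630, and the smooth muscle and vessel sum 3.91 and 22.4, while Hspa2 was at 4.28 and 7.16 scaled FPKM and Hspb8 at 3.26 and 4.10. Cryab went the other way, at 4.72 scaled FPKM with etoposide and 3.79 in its control. The part of these cells in the chaperone values was not tested.

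**Figure D5:**
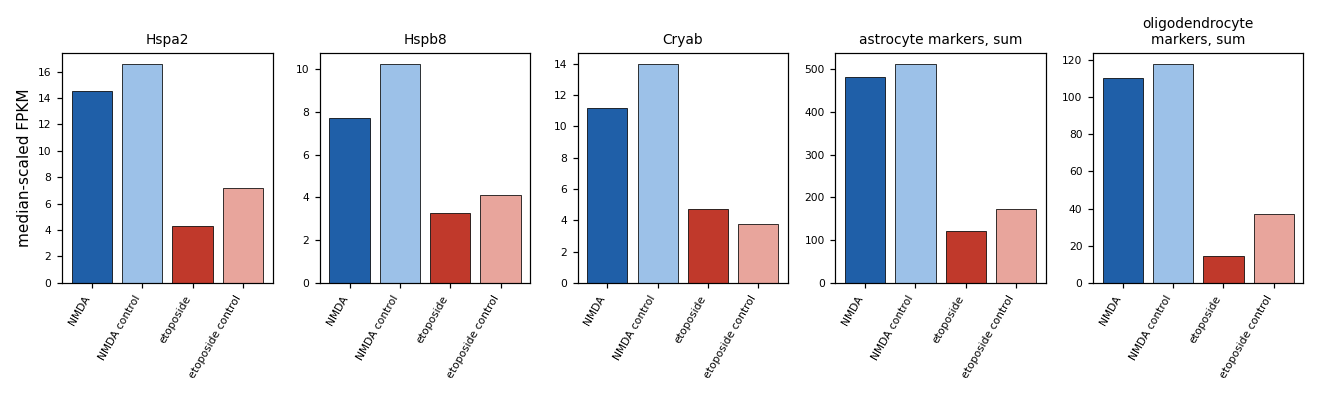
Median-scaled FPKM of Hspa2, Hspb8 and Cryab and the summed median-scaled FPKM of the astrocyte and oligodendrocyte lineage markers, 1 bar per library. All 5 panels are higher in the NMDA library and its control than in the etoposide library and its control. The genes shown were picked as the members with the highest median-scaled folds between the controls.

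Other chaperone genes, a list of 96 of which 95 are in the tables, gave a wider view of the pathway. With etoposide 78 were compared, 0 were at least 2-fold higher and 3 lower (backgrounds 0.477% and 7.36%). After median scaling the balance turned, with 3 of 80 higher and 1 lower (backgrounds 2.56% and 2.43%). These were Dnajc9, Pfdn5 and Dnajb3 on the high side and Serpinh1 on the low side. Dnajb3, at 1.25 FPKM with etoposide and 0.491 FPKM in its control, met the level filter only through the etoposide library. On the deposited scale their median on the log2 scale exceeded the all-gene median by 0.16. All 8 subunits of TRiC, the cytosolic chaperonin that folds actin and tubulin, were above the median of all genes, as were all 5 measured subunits of prefoldin, which delivers clients to it. The list medians minus that of all genes were 0.27 and 0.68. With NMDA 8 of 8 TRiC and 2 of 5 prefoldin genes lay above the median of all genes, with list medians 0.05 above and 0.02 below it. Between the controls after median scaling the counts were 5 of 8 and 5 of 5. Folds of these lists against the other control are not given, and the part of transcript length in them was not tested. Pfdn5 was at 50.2 FPKM with etoposide and 32.0 FPKM in its control, and Dnajc9, an HSP40 protein that also binds histones, at 6.08 and 3.51 FPKM. On the low side, Serpinh1, the collagen chaperone, was at 2.40 and 8.68 FPKM and Clu (clusterin) at 10.3 and 25.5 FPKM with etoposide and in its control, and both are in the authors' deposited table as lower. With NMDA 0 of 82 passed 2-fold (backgrounds 0.438% and 0.729%), the ends being Dnajb3 and Bag4 at log2 folds of 0.29 and 0.28 and Dnajb13 and Cdc37 at -0.37 and -0.35. Between the controls after median scaling, 9 of 80 were at least 2-fold higher in the NMDA control and 2 lower (8.58% and 2.72% of all genes). Of the other HSP90 genes and co-chaperones 13 of 16 lay above the median of all genes. Dnajc15, a mitochondrial HSP40 protein, was at 38.3 FPKM in the NMDA control and 2.85 FPKM in the etoposide control, and Clu at 239 and 25.5 FPKM.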

How the data were processed

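Paired-end RNA libraries were prepared from total RNA, per the labels' protocols. FPKM values per gene come from the authors' deposited tables, per the file headers. Cufflinks 2.0.0, Cuffdiff, Bowtie, TopHat and the build mm9 appear in the submitters' processing notes, which give them no role or order. Starts in the tables count from 0, and 1 was added. The authors also deposited a table of changed genes for each treatment, whose selection rule no source used here states.

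Groups followed the sample titles, and the control paired with NMDA is the one numbered 2. Folds, calls and scaling were computed with Python 3.11.15, numpy 2.4.6, pandas 2.3.3 and scipy 1.17.1 and tested on simulated data. The value of 1 fragment on 1 kb was the median of FPKM times length in kb between 0.04 and 0.09 over single-exon genes of at least 1000 bases. Fragment numbers and the exact 95% binomial intervals made from them are approximate. Transcript lengths came from GENCODE of the same build, using the protein-coding transcript nearest to the locus. Scaled values were filtered at 1 scaled FPKM.

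The members, gene lists and marker lists were chosen with earlier results of these data known. All members could be named, and of the other chaperone genes the 2 largest and 2 smallest folds per comparison and of each marker list the 2 genes of highest mean FPKM. Other genes named were chosen after their values were seen. Map2 and Pfdn6 were not analysed here. Of the genes that this rule names, those of some results are not reported here.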

Additional observations from a re-analysis of the deposited data

How the results depend on the processing

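No paired analysis was possible because each group holds 1 library, and no replicate could be left out. With etoposide the 2 called members became 0 with median scaling (4.99% of all genes called) and 0 with 75th percentile scaling (5.04%). Against the other control they became 28, all lower (85.2%), and with median scaling added 5, of which 1 was higher and 4 lower (14.7%). The higher member was Hspa1a, which met the level filter there only through the etoposide library. With NMDA the count of 0 became 29 (77.2%) and 3 (10.4%) under the last 2 settings, all higher. Between the controls the 27 became 4 under median scaling (11.3%) and 4 under 75th percentile scaling (11%). The members' median minus that of all genes was -0.02 with etoposide, -0.31 without the level filter and -0.39 against the other control. With NMDA it was 0.01, and 0.38 against the other control and 0.22 with median scaling added. Between the controls it was 0.45, and 0.81 without the filter. All genes shifted between scales by the medians given in the report, and no other cause was tested. Of the 27 genes called between the controls, 10 changed sign with median scaling: Hspa9 (-0.23), Hspa12a (-0.23), Hspa13 (-0.18), Dnaja2 (-0.00071), Dnajb1 (-0.25), Dnajb2 (-0.014), Dnajb5 (-0.27), Dnajc6 (-0.36), Dnajc7 (-0.079) and Hsf2 (-0.41). With a pseudocount of 0.1 FPKM, 3 members were called with etoposide (15.7% of all genes), 0 with NMDA (1.50%) and 28 between the controls (87.7%). Levels under about 1 FPKM (Hspa1a, Hspa1b, Hspb1, Bag3) rest on few fragments.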
